A study of Mus musculus with 10 samples.

Results

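The genes described here are 9 genes of cell cycle arrest and senescence: *Trp53* and *Mdm2*, the CDK inhibitor genes *Cdkn1a* (p21), *Cdkn1b* (p27), *Cdkn2a* (p16Ink4a and p19Arf) and *Cdkn2b* (p15Ink4b), and the pocket protein genes *Rb1*, *Rbl1* (p107) and *Rbl2* (p130). They were chosen as a known barrier to the reprogramming of fibroblasts, not by a measured value, though earlier results of these data were known. For each gene, all ZFP266 DamID-seq peaks were taken that shared a base with the gene or lay within 50 kb of it (RefSeq, GRCm38.p6), which gave 16 of the 15119 peaks of the list. Of the 9 genes, 5 had such a peak and 4 had none.

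ZFP266 is a KRAB zinc finger protein, and DamID-seq maps where it sits by fusing it to the bacterial methyltransferase Dam, which methylates GATC sequences nearby. Mouse embryonic fibroblasts (MEFs) of the 129 strain, with no genetic change named in the labels, were nucleofected either with PGK-mO-Dam (Dam only, 5 samples) or with PGK-mO-Dam-Zfp266 (Dam-ZFP266, 5 samples) and recovered for 48 h before fluorescent cells were sorted. In both plasmids the PGK promoter drives mOrange as the first reading frame and Dam is made by translation reinitiation, which keeps its level low, so that the fusion protein came from a plasmid on top of the cells' own ZFP266. The authors compared the groups fragment by fragment, a fragment being the DNA between neighbouring GATC sites, and deposited 1 list of peaks for all 10 samples. The list holds no value of a single sample, so the read depth is unknown, no replicate error could be given, and whether a peak was shared by all 5 Dam-ZFP266 samples was not tested. A signal value, whose scale is not stated, and a q-value of up to 0.1 are given for each peak.

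In fibroblasts, p53 is a transcription factor that stops the cell cycle after damage or stress, mainly by switching on p21, while MDM2 marks p53 for degradation. The INK4 proteins p15 and p16 hold back CDK4 and CDK6, p21 and p27 inhibit CDK2 complexes, and p19ARF blocks MDM2. All of these act on RB, p107 and p130, which hold E2F transcription factors in check until CDKs phosphorylate them.

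*Cdkn1a* held most of the peaks. Of the 16 peaks, 9 were in or within 50 kb of *Cdkn1a*, 3 of *Mdm2*, 2 of *Rb1*, and 1 each of *Trp53* and *Cdkn2b*, while *Cdkn1b*, *Cdkn2a*, *Rbl1* and *Rbl2* had 0. A peak within 50 kb is common: 49.7% of the 21000 protein-coding genes had one, so that 5 of 9 is close to that background. At least 9 peaks within 50 kb were found for 0.929% of protein-coding genes (195 genes), and 99.1% of genes had fewer peaks than *Cdkn1a*. The mean over all genes was 1.16 peaks and the highest count 26. *Mdm2* had more peaks than 84.7% of genes and *Rb1* more than 72.6%. Since large genes have wider windows, peaks were also counted per Mb of window: *Cdkn1a* had 82.0, *Mdm2* 24.6, *Cdkn2b* 9.55, *Trp53* 8.97 and *Rb1* 8.68 peaks per Mb, against 5.55 over the genome. *Cdkn1a* stood above 99.8% of genes on this scale and *Rb1* above 64.3%.

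**Figure D1:**
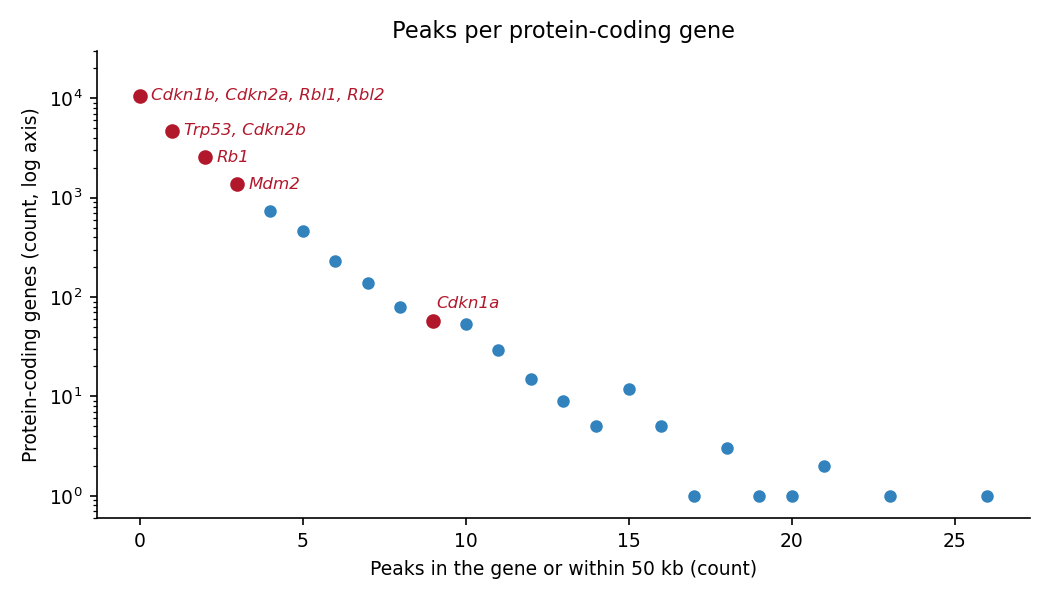
Number of protein-coding genes (vertical log axis, count) with each number of peaks in the gene or within 50 kb (horizontal axis, count). Blue points are counts with none of the 9 genes and red points those of the named genes; *Cdkn1a* lies at 9 peaks, and the other 8 genes lie between 0 and 3.

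Narrower windows kept *Cdkn1a* and *Rb1*. A peak shared a base with the gene in *Cdkn1a* (3 peaks) and *Rb1* (1 peak), against 17.1% of protein-coding genes. At least 3 peaks in the gene were found for 3.65% of genes. Within 10 kb, 3 of the 9 genes had a peak (*Cdkn1a* 5, *Mdm2* 2 and *Rb1* 1), against 27.2% of genes. Within 100 kb, 7 of 9 had one, with 9 at *Cdkn1a*, 5 at *Mdm2*, 3 each at *Cdkn2a* and *Rb1*, 2 each at *Trp53* and *Cdkn1b*, and 1 at *Cdkn2b*. At this distance 65.4% of protein-coding genes had a peak, so that 7 of 9 is again near the background. The retinoblastoma paralogs *Rbl1* and *Rbl2* had none at any of these distances. The edge of the window mattered for the INK4 locus: the peak 37743 bp from *Cdkn2b* was also the nearest to *Cdkn2a*, at 54156 bp, just outside the window. The next nearest outside was 64151 bp from *Cdkn1b*, and the farthest inside was 48253 bp from *Rb1*.

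**Figure D2:**
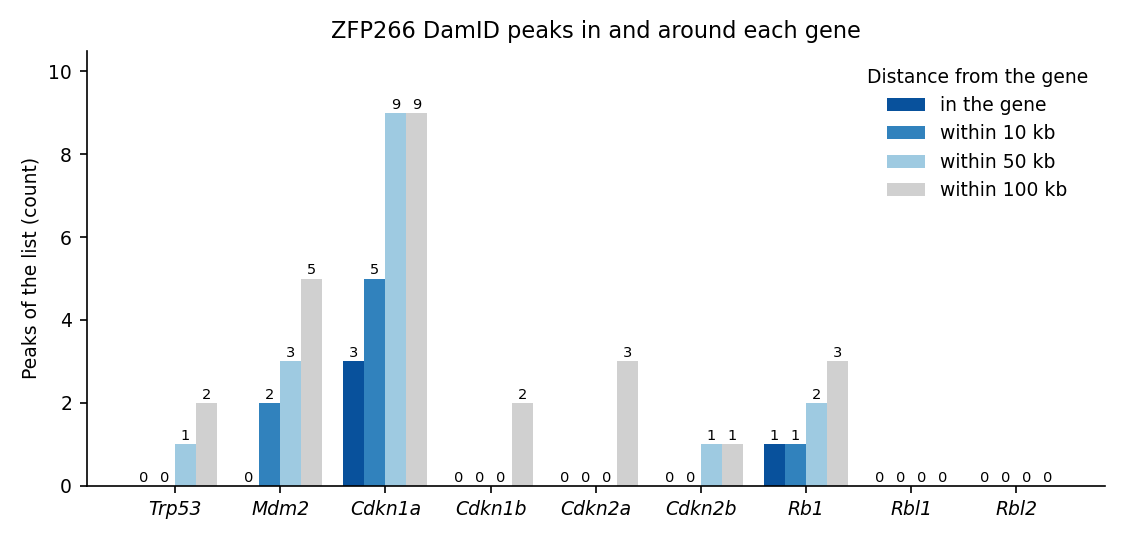
Peaks of the list (vertical axis, count) in the gene and within 10, 50 and 100 kb of each of the 9 genes (groups of bars, counts printed above them). *Cdkn1a* has 3, 5, 9 and 9 peaks, and *Rbl1* and *Rbl2* have 0 in all windows.

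Of the 16 peaks, 10 lay upstream of the gene, 4 shared a base with it and 2 lay downstream. Their length had a median of 2452 bp (545 to 9604 bp), against 1777 bp for the whole list. They had a median of 1.5 GATC fragments, against 1 for the whole list, and 8 of them were a single fragment. The signal value had a median of 0.966 (0.648 to 1.79), against 0.898 for the whole list. A q-value under 0.05 was given for 10 of 16 peaks (62.5%, Wilson 95% interval 38.6 to 81.5), against 52.5% of the list. A signal value above 1 together with a q under 0.05 held for 6 of 16, namely 4 at *Cdkn1a*, 1 at *Mdm2* and 1 at *Rb1*, against 26.4% of the list. These intervals cover counting error only, and neighbouring peaks of a locus are not independent.

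**Figure D3:**
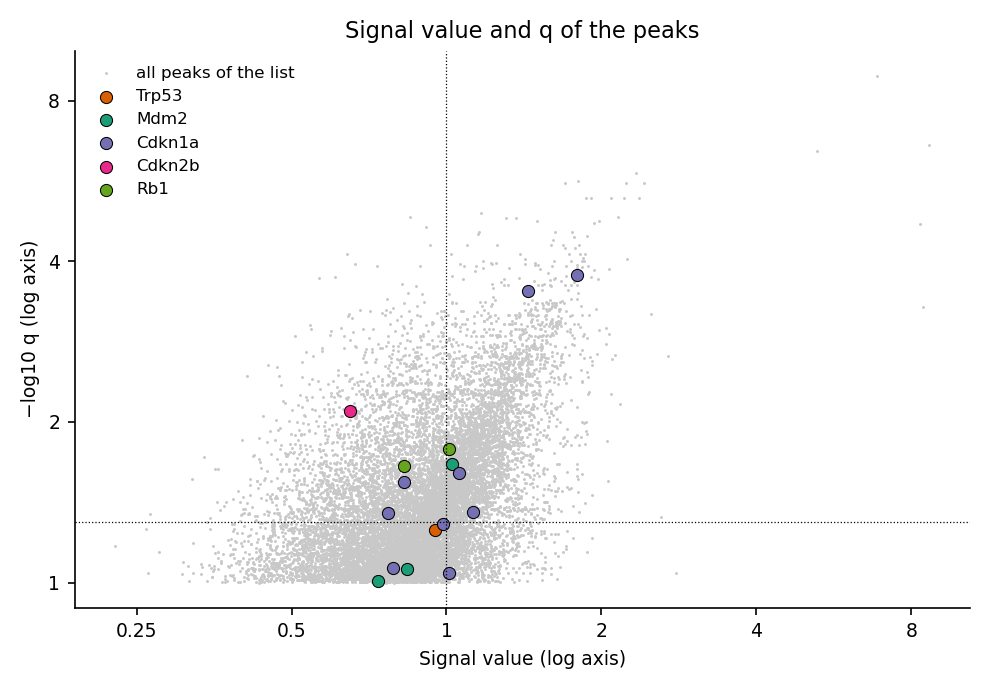
Signal value (horizontal log axis, as deposited) against −log10 q (vertical log axis) for all 15119 peaks in grey and the 16 peaks of the named genes in colour. Dotted lines mark a signal value of 1 and a q of 0.05; 2 *Cdkn1a* peaks have the highest −log10 q of the 16, and the *Cdkn2b* peak the lowest signal value.

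The p53 gene itself had its only peak far upstream. *Trp53* (chr11:69580359-69591873) encodes p53, and the peak at chr11:69551897-69554340 ended 26019 bp before its start. This peak was 1 fragment of 2444 bp with a signal value of 0.948 and a q of 0.0553. It overlapped an exon of *Efnb3*, a membrane-bound ephrin ligand, outside its coding sequence, and the nearest transcript start was that of *Dnah2*, an axonemal dynein gene, at 2789 bp. *Wrap53*, the gene that runs from just before the *Trp53* start in the opposite direction, held 0 peaks. The peak held neither a B1 SINE nor an AP-1 motif, as was the case for 37.4% of the list. It covered 2.19% of the *Trp53* window, which held 54 B1 SINEs and 12 AP-1 motifs.

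The 3 peaks of *Mdm2*, the ubiquitin ligase of p53, formed a row upstream of the gene. *Mdm2* lies on the minus strand (chr10:117688875-117710758), and the peaks filled part of the intergenic space before *Slc35e3*. The nearest, chr10:117715998-117716542, was 545 bp long and 5240 bp from the *Mdm2* start, with a signal value of 0.837 and a q of 0.0866. The middle peak, chr10:117717477-117720950, had a signal value of 1.03 and a q of 0.0215 over 4 fragments. The farthest, chr10:117721177-117725762, had a signal value of 0.737 and a q of 0.0986 over 7 fragments, close to the upper limit of the list. Only 226 bp (2 fragments) and 934 bp (6 fragments) separated them, and joining peaks under 1 kb apart left 1 locus. The middle peak held 2 B1 SINEs and 1 AP-1 motif, the farthest 5 B1 SINEs and 2 AP-1 motifs, and the nearest held neither. The *Mdm2* start itself lay on a fragment of 1539 bp outside the peaks.

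*Cdkn1a*, which encodes the CDK inhibitor p21, is on the plus strand (chr17:29090979-29100722) and has 2 transcript starts that are 2790 bp apart. The strongest of the 16 peaks, chr17:29089185-29091843, covered the first of these starts (29090979, NM_001111099). It was a single fragment of 2659 bp with a signal value of 1.79, above that of 99.4% of the peaks in the list, and a q of 0.000171. It was also the only peak over a promoter (1000 bases before to 100 after a start) of the 9 genes, against 3.57% of protein-coding genes. The second start (29093769, NM_007669) lay 1926 bp beyond the peak on a fragment of 146 bp. Of the 11 transcript starts of the 9 genes, 1 was in a peak; 4 lay on fragments of at least 1 kb, and of these only the first *Cdkn1a* start was in a peak.

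The bases before the first *Cdkn1a* start are shown because the strongest peak covered them. They were searched for a p53 response element, the sequence through which p53 switches on its targets. The search took pairs of 10-base half-sites at most 13 bases apart, with no mismatch allowed. The matched half-sites are in capitals (plus strand, RefSeq promoter sequence of GRCm38.p6, chr17:29090729-29090978). The 10 bases right after the second one, tgacatgttc, begin with T, where the half-site pattern takes A or G. Joined to GAACATGTCT they form a pair with no spacer, which the search could not match and which is not marked.
Cdkn1a first start: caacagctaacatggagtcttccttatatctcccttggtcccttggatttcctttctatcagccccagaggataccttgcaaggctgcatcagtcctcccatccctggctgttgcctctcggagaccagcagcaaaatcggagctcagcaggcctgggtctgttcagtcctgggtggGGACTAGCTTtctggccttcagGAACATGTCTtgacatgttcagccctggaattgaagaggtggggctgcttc

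The matched pair (chr17:29090906-29090937) had a spacer of 12 bases and its centre lay 58 bases before the first start and 2848 bases before the second. It was the only match in the *Cdkn1a* window. A match of this kind was in 0.966% of all peaks, over their whole length (median 1777 bp). It was in 0.0639% of 32851 RefSeq promoters over the same 250 bases, so the unlike lengths keep these shares from being compared directly. The windows of *Rbl1* and *Rbl2* held 1 and 2 matches, none of them in a peak, and those of the other 6 genes held no match. Since no mismatch was allowed, the search misses response elements that differ from the pattern. A window without a match can therefore still hold one, and a window with a match can hold others. The 250 bases before the second start were richer in GC (64.8% against 54.0%) and held 19 CpG against 2.

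The other *Cdkn1a* peaks lay on both sides. Just upstream, chr17:29086392-29088976 (2585 bp, signal value 0.786, q 0.0864) was parted from the strongest peak by 1 fragment of 208 bp. Further upstream came chr17:29081900-29083279, with a signal value of 0.827 and a q of 0.0287. The next 2 lay at *Trp53cor1* (lincRNA-p21), a long noncoding RNA that is itself induced by p53 and runs away from *Cdkn1a*, with its start 11853 bp from the first *Cdkn1a* start. The peak at chr17:29076933-29079462 covered the *Trp53cor1* start, with a signal value of 0.770 and a q of 0.0448. Its neighbour, chr17:29075762-29076798, lay in a *Trp53cor1* intron 134 bp away and had a signal value of 1.06 and a q of 0.0250. Another peak at *Trp53cor1*, chr17:29067548-29068370, also intronic, had a signal value of 0.984 and a q of 0.0514.

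Downstream, the second highest value of the locus was at the end of the gene. The peak chr17:29100087-29109690 began in the last exon, past the coding sequence, and ran 9604 bp over only 2 fragments, with a signal value of 1.44 and a q of 0.000302. Soft-masked repeats of the reference made up 81.3% of its bases, against a median of 24.5% in the list, and it was longer than 99.9% of the peaks; whether mapping in repeats bore on its value was not tested. Before it, chr17:29099192-29099812 covered coding bases of the last exon, with a signal value of 1.12 and a q of 0.0443. The most distant peak, chr17:29143678-29146137, lay in *Rab44*, a gene for a Rab GTPase, 42956 bp past *Cdkn1a*, with a signal value of 1.01 and a q of 0.0910.

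**Figure D4:**
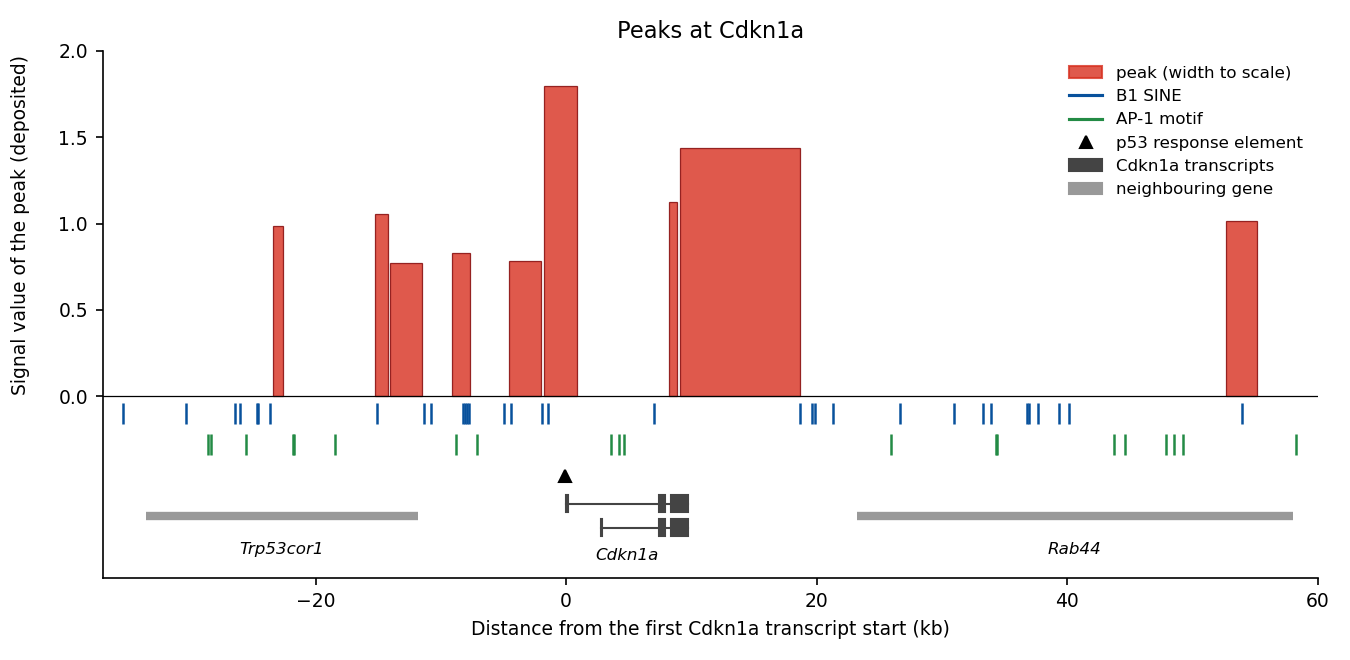
Peaks in the *Cdkn1a* window by distance from the first transcript start (horizontal axis, kb), with the deposited signal value as bar height and the peak's extent as bar width. Ticks below mark B1 SINEs and AP-1 motifs, and the triangle marks the matched pair of p53 half-sites. Dark boxes and lines are the exons and transcripts of *Cdkn1a*, and grey lines the neighbouring genes. The bar over distance 0 is the highest, at 1.79.

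Because a peak is a run of whole fragments, the count at *Cdkn1a* depends on how they are joined. With peaks under 1 kb apart joined, the 9 peaks became 6 loci. Peaks covered 21.6% of the *Cdkn1a* window, 7.06% of the *Mdm2* window, 3.83% of the *Cdkn2b*, 2.19% of the *Trp53* and 0.957% of the *Rb1* window. The fragments in *Cdkn1a* peaks had a median length of 823 bp, against 284 bp for those outside, and of the 27 fragments of at least 1 kb in the window 7 were in peaks. Of the fragments of at least 1 kb, 2 of 22 were in peaks at *Mdm2*, 1 of 28 at *Trp53*, 1 of 12 at *Cdkn2b* and 0 of 49 at *Rb1*. The *Rbl1* and *Rbl2* windows had 32 and 34 such fragments, but with no peak there none could be in one. No such share was taken over all genes. The part of fragment length in these counts was not tested.

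The INK4 locus held 1 peak within 50 kb. *Cdkn2b* (chr4:89306289-89311032) and *Cdkn2a* (chr4:89274473-89294619) lie side by side on the minus strand, and the peak at chr4:89348775-89352790 was upstream of both, in an intron of the noncoding gene *Gm12610*, which runs in the opposite direction. It had the lowest signal value of the 16, 0.648, which 13.7% of the list lay below, but a q of 0.00802 over 5 fragments and 4016 bp. The starts of p19Arf (89294619) and p16Ink4a (89282192) lay 54156 and 66583 bp from it. The peak held 3 AP-1 motifs and no B1 SINE. The *Cdkn2a* window had the lowest B1 density of the 9, 1.08 per 10 kb, and the *Cdkn2b* window 1.34.

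*Cdkn1b*, which encodes p27, had its nearest peak 64151 bp from the gene (chr6:134920401-134925525), with a signal value of 0.844 and a q of 0.0767. Its window held 28 B1 SINEs and 18 AP-1 motifs.

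*Rb1* had a peak deep inside the gene and one past its end. *Rb1* (chr14:73195502-73325822, minus strand) spans 27 exons, and the peak chr14:73235552-73236533 lay in intron 17, which is 45749 bp long. It was 982 bp long, with a signal value of 1.01 and a q of 0.0167. The gene *Lpar6*, a lysophosphatidic acid receptor, lies within this intron, and its start was 1358 bp from the peak, while the *Rb1* start was 67692 bp from its nearest peak. The second peak, chr14:73146027-73147249, lay 48253 bp past the end of *Rb1* in an intron of *Rcbtb2*, with a signal value of 0.827 and a q of 0.0223. The intronic peak held neither a B1 SINE nor an AP-1 motif, and the downstream peak held 2 AP-1 motifs. For *Rbl1* (chr2:157145893-157204534) and *Rbl2* (chr8:91070057-91123844) the nearest peaks were 147999 and 194040 bp away. Absence from the list says that no fragment passed the caller's limit there; without depth it does not show that ZFP266 was absent.

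**Figure D5:**
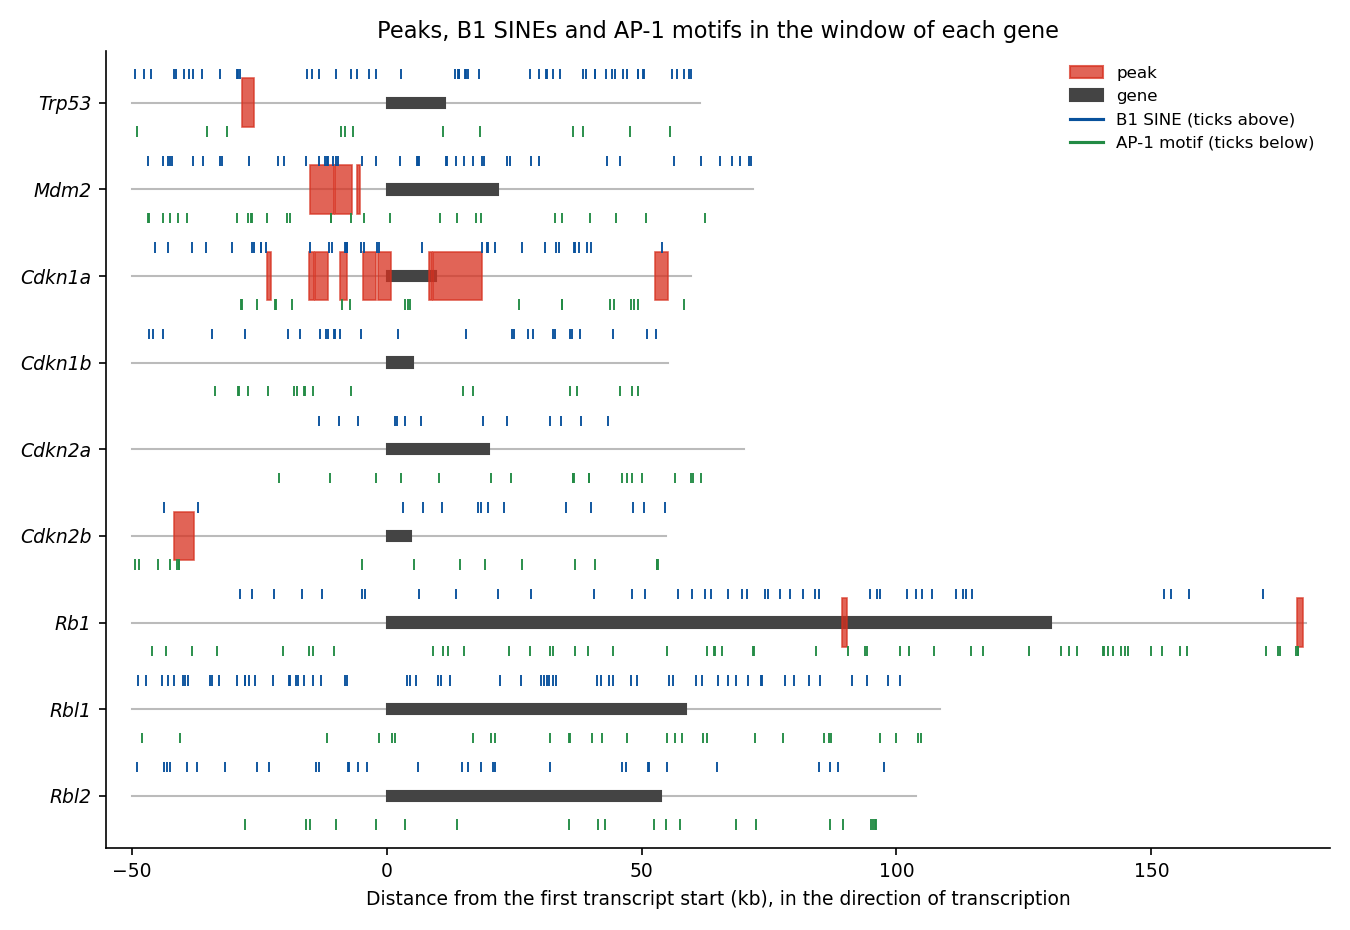
The window of each gene (rows) by distance from the first transcript start in the direction of transcription (horizontal axis, kb). Red boxes are peaks, dark bars the gene, ticks above the line B1 SINEs and ticks below it AP-1 motifs; *Rbl1* has 64 B1 SINEs in its window and no peak.

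B1 SINEs, short repeats derived from 7SL RNA, are of interest at these peaks because ZFP266 is studied as a B1-binding protein. They were found by alignment to a consensus derived from the genome (at least 80 bp at 70% identity). Of the 16 peaks 8 held one (50%, Wilson 95% interval 28 to 72), against 32.7% of the list. This was 6 of 9 at *Cdkn1a* and 2 of 7 at the other genes. Longer peaks have more room: per 10 kb of sequence the 16 peaks held 3.91 B1 SINEs and all peaks of the list 2.26. The windows around the genes differed in B1 content, with 4.84 per 10 kb at *Trp53*, 4.03 at *Rbl1*, 3.77 at *Mdm2*, 3.28 at *Cdkn1a*, 2.66 at *Cdkn1b*, 2.08 at *Rbl2*, 1.87 at *Rb1*, 1.34 at *Cdkn2b* and 1.08 at *Cdkn2a*, against 1.01 over the genome. At *Cdkn1a*, 9 of the 36 B1 SINEs of the window were in peaks (25%), close to the 21.6% of the window that peaks covered. Of the 23699 bp covered there, 9604 bp belonged to 1 peak, which held only part of 1 B1 SINE. At *Mdm2*, 7 of 46 B1 SINEs were in peaks (15.2%, with 7.06% covered). Peaks held 0 of 54 at *Trp53* (2.19% covered), 0 of 14 at *Cdkn2b* (3.83% covered) and 0 of 43 at *Rb1* (0.957% covered). The windows of *Cdkn1b*, *Cdkn2a*, *Rbl1* and *Rbl2* had no peak, so that no B1 SINE could be in one.

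The 16 B1 SINEs in peaks, 12 on the minus and 4 on the plus strand, had 75.6% to 97.9% identity to the consensus (median 91.4%), and 14 lay wholly within a peak. The consensus and 4 of the elements are shown, those with the highest identity at *Cdkn1a* and *Mdm2*, the one in the strongest peak and the one nearest to a peak's midpoint. Capitals mark bases that differ from the consensus, and each is written on the strand of the element.
B1 consensus: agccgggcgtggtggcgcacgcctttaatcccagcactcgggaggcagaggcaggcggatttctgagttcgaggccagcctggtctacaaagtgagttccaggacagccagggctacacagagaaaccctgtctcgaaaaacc
Cdkn1a chr17:29083196-29083335 (minus): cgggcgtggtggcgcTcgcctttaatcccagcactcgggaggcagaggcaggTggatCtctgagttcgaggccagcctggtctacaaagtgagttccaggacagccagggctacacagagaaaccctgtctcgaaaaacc
Cdkn1a chr17:29089489-29089631 (minus): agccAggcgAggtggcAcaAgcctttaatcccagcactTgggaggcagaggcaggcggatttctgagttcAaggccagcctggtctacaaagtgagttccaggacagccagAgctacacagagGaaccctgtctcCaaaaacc
Rab44 chr17:29144828-29144968 (minus): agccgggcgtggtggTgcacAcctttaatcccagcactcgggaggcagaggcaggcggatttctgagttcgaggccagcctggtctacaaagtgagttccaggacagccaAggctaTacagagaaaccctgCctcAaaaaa
Mdm2 chr10:117722178-117722320 (plus): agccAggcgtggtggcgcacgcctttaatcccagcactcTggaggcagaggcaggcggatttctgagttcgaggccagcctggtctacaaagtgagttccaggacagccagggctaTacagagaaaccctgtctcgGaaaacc

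The first element differed from the consensus at 3 bases (97.9% identity) and ran past the end of its peak. That peak, 7700 bp before the first *Cdkn1a* start, held 4 B1 SINEs in 1380 bp. The element in the strongest peak differed at 9 bases (93.7% identity) and lay 954 bases from the peak's midpoint. The element in *Rab44* (95.7% identity) lay 9 bases from the midpoint of its peak. The *Mdm2* element, in the farthest *Mdm2* peak, differed at 4 bases (97.2%).

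AP-1 motifs, the sites of FOS and JUN factors, were searched as TGACTCA and its reverse complement TGAGTCA. They were in 5 of 16 peaks (31.2%, Wilson 95% interval 14.2 to 55.6), against 44.2% of the list. Of the *Cdkn1a* peaks 1 of 9 held one, and of those at the other genes 4 of 7; the difference was not tested. Per 10 kb of peak sequence, *Cdkn1a* peaks held 0.422 motifs, the other 7 peaks 4.63 and all peaks of the list 3.28. B1 SINEs, by contrast, were about as dense in the *Cdkn1a* peaks, 3.80 per 10 kb, as in the other 7, 4.05 per 10 kb, and both *Mdm2* peaks with a B1 SINE also held an AP-1 motif. Of the 20 AP-1 motifs of the *Cdkn1a* window, 1 was in a peak, as were 3 of 28 at *Mdm2*, 3 of 17 at *Cdkn2b* and 2 of 56 at *Rb1*. None of the 16 peaks held one in its central 200 bp, where 6.79% of all peaks did. Both a B1 SINE and an AP-1 motif were in 3 of 16 peaks (14.3% of the list), and neither in 6 of 16 (37.4% of the list).

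Motifs of the reprogramming factor families were also counted. A KLF motif (CCACACCC, CCACGCCC, CCCCACCC or CCCCGCCC on either strand) was in 12 of 16 peaks, against 41.9% of the list, and in 8 of the 9 at *Cdkn1a*, including the strongest one. A SOX motif (CCATTGT on either strand) was in 5 of 16, against 25.4% of the list. The 16 peaks were longer than those of the list and had a median GC content of 46.8%, against 43.5%, and the part of length and GC content in these counts was not tested. The B1 consensus itself holds GGGCGTGG, the reverse complement of CCACGCCC. A B1 SINE in a peak can therefore supply its KLF motif, so the KLF count is not separate from the B1 count. The part of B1 SINEs in it was not tested.

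In 3 peaks the motifs stood close together. The single *Cdkn1a* site and these 3 pairs are shown with 10 bases on either side and the motif in capitals (plus strand of the reference).
Cdkn1a chr17:29082208-29082214: tcctgtcgggTGACTCAgcagaaaaaa
Mdm2 chr10:117721593-117721599: gaagacattaTGAGTCAtgttcctttg
Mdm2 chr10:117721611-117721617: gttcctttggTGAGTCAgagtcacagc
Cdkn2b chr4:89351690-89351696: ggctttttgcTGAGTCAtcctgtctca
Cdkn2b chr4:89351723-89351729: gagatgagttTGACTCAttcagaaact
Rb1 chr14:73146967-73146973: attctgtctcTGACTCAttctgtcaaa
Rb1 chr14:73146992-73146998: aatctttctcTGACTCActttgtctgc

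The starts of the paired motifs were 18 bases apart at *Mdm2*, 33 at *Cdkn2b* and 25 in the *Rb1* peak within *Rcbtb2*. The *Cdkn1a* site shared its peak with the 4 B1 SINEs described above and was 474 bases from the nearest of them. At *Mdm2* the pair lay 161 bases from a B1 SINE. The *Cdkn2b* and *Rb1* pairs were in peaks with no B1 SINE.

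Other genes of the pathway were taken from a list of 54: regulators and paralogs of p53, p53 targets, further CDK inhibitors, cyclins and CDKs, E2F partners of the pocket proteins, and regulators of the INK4 locus. Of these 38 had a peak within 50 kb (70.4%, against 49.7% of protein-coding genes), 12 had one in the gene (22.2%, against 17.1%) and 3 over a promoter (5.56%, against 3.57%), and the last 2 shares lie near those of all genes. The median was 1 peak a gene, against 0 over all protein-coding genes. Among 15 p53 targets, 11 had a peak (73.3%, against 49.7% of all genes), with a median of 3. Of the 15, 2 had a peak over a promoter (13.3%, against 3.57%). These were *Eda2r*, a TNF receptor family gene with 5 peaks, of which 4 were in the gene, and *Plk2*, a polo-like kinase gene with 3. *Phlda3*, an inhibitor of AKT, had 8 peaks in a window of 103.1 kb, and *Bbc3*, which encodes the apoptosis inducer PUMA, had 5, of which 4 held a B1 SINE. *Bax*, *Fas*, *Ccng1* and *Tnfrsf10b* had 0. The *Cdkn1a* count of 9 was thus above that of all 15 other p53 targets of the list.

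The groups around RB are small, and their counts are read against the 49.7% of all genes with a peak within 50 kb. Of the cyclin and CDK genes 7 of 8 had a peak (87.5%), led by *Cdk6* with 11, of which 7 were in the gene. The INK4 target *Cdk4* had a single peak, with a signal value of 1.81. Of 15 E2F and DREAM genes 8 had a peak (53.3%, close to all genes), with 7 at *E2f6* and 1 over the promoter of *Tfdp1*, the partner of E2F proteins, and *E2f1*, *E2f7* and *E2f8* had 0. Among the regulators of p53, 6 of 8 had a peak (75%), 2 of them in the gene (*Usp7* with 1 and *Trp63* with 2, 25% of the group against 17.1% of all genes). The p53 inhibitor *Mdm4* had 2 peaks within 50 kb. Among the other CDK inhibitors, *Cdkn2d* (p19Ink4d) had 3 peaks, all with a B1 SINE and 1 of them in the gene, *Cdkn2c* had 1 and *Cdkn1c* had 0. Of 5 regulators of the INK4 locus 4 had a peak (80%), among them *Dmtf1*, an activator of *Arf*, with 1 in the gene and a signal value of 1.71. The other genes of the 12 with a peak inside, besides *Eda2r*, were *Pmaip1*, *Sesn1*, *Sesn2*, *E2f3*, *E2f4* and *E2f5*, with 1 each. The highest signal value near the 54 genes, 1.92, was that of a peak between *Trp53inp1* and *Ccne2*, which lie next to each other, followed by *Cdk4*, *Dmtf1*, *Lin9* (1.66) and *Bbc3* (1.61). Of these values 2, at *Trp53inp1* and *Ccne2* and at *Cdk4*, were above the 1.79 of the peak over the first *Cdkn1a* start. The q-values were 0.00276 at *Trp53inp1* and *Ccne2*, 0.0441 at *Cdk4*, 0.00109 at *Dmtf1*, 0.0850 at *Lin9* and 0.00124 at *Bbc3*. All were higher than the 0.000171 at the first *Cdkn1a* start, and the *Cdk4*, *Lin9* and *Bbc3* peaks lay outside the genes.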

How the data were processed

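DamID-seq had been done on 5 Dam only and 5 Dam-ZFP266 samples of MEFs (32 ng of DNA each). Per the paper's methods and the submitters' processing notes, the authors checked reads with FastQC, trimmed them with cutadapt, aligned them to GRCm38.p6 with BWA, counted reads per DpnII fragment and called peaks with Daim from Dam-ZFP266 against Dam only samples (versions not given in the sources used here). The list deposited by the authors gives a score, a signal value (score of unstated scale), and −log10 values of p (not used here) and of q (q-value), all pooled over the samples. Its highest q was 0.1, so peaks with a q above the 0.05 that the methods give as an example are included. The methods pair this example with a log2 fold change above 1. Whether the signal value is on that scale is not stated, so the limit of 1 on it was chosen for this work. A signal value above 1 was given for 33.3% of the list. Depth is unknown, and the samples could not be compared.

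The 9 genes, the list of 54 genes and the measures were chosen with earlier results of these data known. The search for p53 response elements, the joining of peaks and the shares without *Cdkn1a* were added after the values had been seen. Genes named are the 9, genes that hold or are nearest to their peaks, and of the 54 those with a peak over a promoter or in the gene and those of the 5 highest signal values; *Phlda3*, *E2f6*, *Mdm4*, *Cdkn2c* and those with 0 peaks were named after their values were seen.

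Peaks were set against curated RefSeq transcripts (windows of 50 kb, promoters from 1000 bases before to 100 after a start). No B1 consensus was available as text, so one was built from the 7SL gene *Rn7s1* and 400 related copies on chromosome 19 with MAFFT 7.526 and aligned to the genome with blastn 2.17.0 (an e-value of 10 as limit, alignments of 80 bp or more, 70% identity or more). Sequences and motifs are those of the reference genome, not of the 129 strain. Python 3.11.15, pandas 2.3.3, pysam 0.24.0 and samtools 1.23.1 were used, and the steps were tested on simulated data. All results are descriptive, and no test across samples was possible. Alternatives covered the window, stricter peaks, the annotation, and the definitions of a B1 SINE and an AP-1 motif.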

Additional observations from a re-analysis of the deposited data

How the results depend on the processing

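No paired analysis was possible because the list pools all samples, and for the same reason no replicate could be left out. The count of 16 peaks became 4 with peaks that share a base with the gene, 8 within 10 kb, 6 with a q under 0.05 and a signal value above 1, and 10 with a score at or above the median of the list. The count of 5 genes with a peak became 2, 3 and 3 under the first 3 of these. Without *Cdkn1a*, 2 peaks with a B1 SINE remained in place of 8, and with AP-1 motifs limited to the central 200 bp, 0 in place of 5. The remaining 13 of 22 alternatives stayed within 1.5 times. The scale of the signal value, the depth and the spread between samples limit every value given.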
